A study of Mus musculus with 12 samples.

Results

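The genes described here are the receptor CD40, the adaptors it recruits and the alternative arm of NF-kB signalling that it can switch on, measured in RNA from tumor-associated macrophages of mouse melanomas. They are 10 genes chosen by function, Cd40, Traf1, Traf2, Traf3, Traf5, Traf6, Birc3, Map3k14, Nfkb2 and Relb, out of 34989 genes in the deposited files, and all 10 passed the filter on low counts that left 16027 genes. RNA-seq had been made from 12 samples in 4 groups of 3, each sample a pool of at least 3 tumors. The CD40 agonist group received normal chow and FGK4.5, an antibody that activates CD40, at 10 mg/kg into the peritoneum every 3 days for up to 10 injections. The CSF1Ri group ate chow with 600 mg/kg of PLX6134, which the labels name CSF1Ri and which is read here as blocking the CSF1 receptor, and had no CD40 antibody. The combination group received both agents. Control mice received normal chow, and PBS is the vehicle given in the protocol. In all 4 groups the tumors arose in mice that carry Tyr::CreER, an inducible Cre recombinase driven by the promoter of the melanocyte gene tyrosinase. Treatment began 30 days after tumor induction, with a total tumor volume under 100 mm3, and ran for 30 days or until a tumor reached 2 cm3. No gate for sorting the macrophages and no age of the mice is given in the sources used here.

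CD40 is a receptor of the TNF receptor family on macrophages, dendritic cells and B cells, and its ligand is displayed by activated T cells. It has no enzyme activity of its own and works through TRAF proteins. In resting cells TRAF3, TRAF2 and the ubiquitin ligases cIAP1 and cIAP2 hold the kinase NIK, the product of Map3k14, at a low level by marking it for destruction. When CD40 is engaged this complex is dismantled and NIK accumulates, and the NF-kB precursor p100, the product of Nfkb2, is processed to p52, which acts with RelB. Most of these steps take place on proteins, so RNA levels show how much message for each part was present and not whether the pathway was active.

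The Cd40 gene lies on chr2:165055627-165072948 (GRCm38, plus strand) and the annotation lists 7 transcripts for it. The transcripts differ around exon 7, an exon of 87 bases, or 29 codons, on chr2:165069629-165069715 that holds the codons of the membrane-spanning segment. The sequences are those of the GENCODE M21 transcripts, and the first runs through exons 6, 7 and 8 of the full-length form (within chr2:165066503-165069848) with exon 7 in capitals. In Cd40-202 exon 6 is joined to exon 8 in the same reading frame, and the capitals mark 5 bases on each side of that junction. In Cd40-203 exon 5 is joined to exon 7 without exon 6, and the capitals mark 5 bases on each side of that junction. The 62 bases of exon 6 are not a whole number of codons, so Cd40-203 reads exon 7 in another frame. Cd40-207 keeps the intron after exon 7, and the capitals mark the retained intron up to the stop codon that it brings.
Cd40-201: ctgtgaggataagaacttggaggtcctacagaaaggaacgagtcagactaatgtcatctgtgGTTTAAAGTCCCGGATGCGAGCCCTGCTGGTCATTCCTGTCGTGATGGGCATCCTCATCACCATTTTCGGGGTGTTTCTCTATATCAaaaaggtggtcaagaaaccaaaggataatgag
Cd40-202: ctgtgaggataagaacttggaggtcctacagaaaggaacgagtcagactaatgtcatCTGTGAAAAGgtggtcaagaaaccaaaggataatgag
Cd40-203: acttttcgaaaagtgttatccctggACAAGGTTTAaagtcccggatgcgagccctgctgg
Cd40-207: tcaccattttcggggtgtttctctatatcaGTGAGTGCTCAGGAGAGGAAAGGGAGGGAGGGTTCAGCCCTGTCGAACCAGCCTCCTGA

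Nfkb2 (chr19:46304320-46312385, plus strand) is shown by its start regions because it was the other gene whose RNA passed the test. RefSeq gives it 3 windows of 250 bases before and 50 after a start on GRCm38.p6, and they were searched on both strands for a pattern that NF-kB proteins bind (GGG, any pair of bases, TT, any base, CC), printed in capitals. The window chr19:46304487-46304786 holds 3 matches, of which a pair overlap, and the window chr19:46305445-46305744 holds 1, which the third window shares. The pattern occurs in 1575 of 32851 RefSeq promoter windows of this length (4.79%). Windows were found for 8 of the 10 genes, not for Cd40 and Relb, 10 windows in all. The pattern is in 5 of them, the 3 of Nfkb2 and 1 window each of Traf2 and Traf3. A second NF-kB consensus that was searched is in 4 of the 10 windows and in 8.46% of all windows. A match is a description of the sequence and not of binding.
Nfkb2 upstream start: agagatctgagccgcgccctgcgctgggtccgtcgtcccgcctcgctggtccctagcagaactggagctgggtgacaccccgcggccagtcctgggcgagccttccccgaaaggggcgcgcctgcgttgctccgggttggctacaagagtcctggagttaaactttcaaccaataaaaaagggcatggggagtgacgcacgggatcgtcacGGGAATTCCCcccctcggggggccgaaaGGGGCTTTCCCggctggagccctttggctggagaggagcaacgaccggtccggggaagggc
Nfkb2 downstream start: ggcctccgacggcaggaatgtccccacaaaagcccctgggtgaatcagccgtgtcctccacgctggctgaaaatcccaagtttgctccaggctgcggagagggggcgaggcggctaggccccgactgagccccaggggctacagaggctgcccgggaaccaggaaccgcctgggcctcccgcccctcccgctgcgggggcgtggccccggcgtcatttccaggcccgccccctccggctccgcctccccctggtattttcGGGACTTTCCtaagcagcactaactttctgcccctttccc

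Sequencing depth ran from 26316328 to 39818657 estimated counts per library. Levels are given as CPM, the count per 1000000 of the library with TMM factors between libraries, for comparisons of 1 gene between groups, and as TPM, which also corrects for transcript length, for comparisons between genes. All 14 macrophage markers looked for were detected in every group. In a principal component analysis combination replicate 2, CSF1Ri replicate 3 and CD40 agonist replicate 1 stood apart from their groups, and results that they touch are also given without them. The labels do not say that the pools of a group came from separate cages, so p-values measure the spread between these pools. The RNA is bulk RNA, so fewer cells of a type and less RNA per cell cannot be told apart.

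On the length-corrected scale the pathway genes ran over more than an order of magnitude. In Control samples Birc3, which encodes the ubiquitin ligase cIAP2, averaged 224 ± 29.9 TPM (SD, n = 3), Cd40 143 ± 40.0 TPM and Traf1 139 ± 33.7 TPM. A middle tier held Map3k14 at 49.5 ± 5.24 TPM, Relb at 44.5 ± 6.78 TPM, Nfkb2 at 28.0 ± 1.36 TPM, Traf2 at 27.2 ± 3.68 TPM and Traf5 at 20.9 ± 5.61 TPM. Traf6, at 11.8 ± 3.55 TPM, and Traf3, at 8.93 ± 1.43 TPM, had the lowest levels. Neighbours within each tier overlapped in their Control values, except that every Birc3 value lay above every Cd40 value and every Relb value above every Nfkb2 value. In the combination Cd40 reached 225 ± 50.8 TPM beside 193 ± 51.7 TPM of Birc3.

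The combination raised the receptor itself relative to CSF1Ri. Cd40 stood at 99.1, 129 and 121 CPM with the CD40 agonist, at 62.0, 60.4 and 109 CPM with CSF1Ri, at 303, 189 and 239 CPM with the combination and at 140, 98.1 and 151 CPM in Control. Every combination library lay above every library of the other 3 groups, while CSF1Ri, CD40 agonist and Control overlapped each other. Against CSF1Ri the combination was 3.16-fold higher, a log2 difference of 1.66 ± 0.27 (SE; edgeR quasi-likelihood, adjusted p = 0.0181). The call was lost when combination replicate 1 (adjusted p = 0.0519), CSF1Ri replicate 1 (0.0758) or CSF1Ri replicate 2 (0.0899) was left out, and in a fit of those 6 libraries alone (0.124), while the log2 difference stayed between 1.48 and 2.15 in every setting.

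The other comparisons of Cd40 did not pass in edgeR. The combination differed from the CD40 agonist by a log2 value of 1.07 ± 0.26 (adjusted p = 0.275) and from Control by 0.91 ± 0.26 (adjusted p = 0.153), a fold of 1.87. In DESeq2, run as an alternative, both were called, with adjusted p of 0.0129 and 0.0212. Without the 3 libraries that stood apart the difference of the combination from Control was 1.06 and was called in edgeR (adjusted p = 0.0422). CSF1Ri stood at a log2 difference of -0.75 ± 0.26 from Control (adjusted p = 0.388), and it was called there when the same 3 libraries were left out. The CD40 agonist alone differed from Control by -0.16 ± 0.26 (adjusted p = 0.947), with a 95% interval of -0.77 to 0.44. The interaction, which is the effect of the antibody in mice on CSF1Ri minus its effect in mice on normal chow, was 1.82 ± 0.37 for Cd40 and was not called (adjusted p = 0.247).

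**Figure D1:**
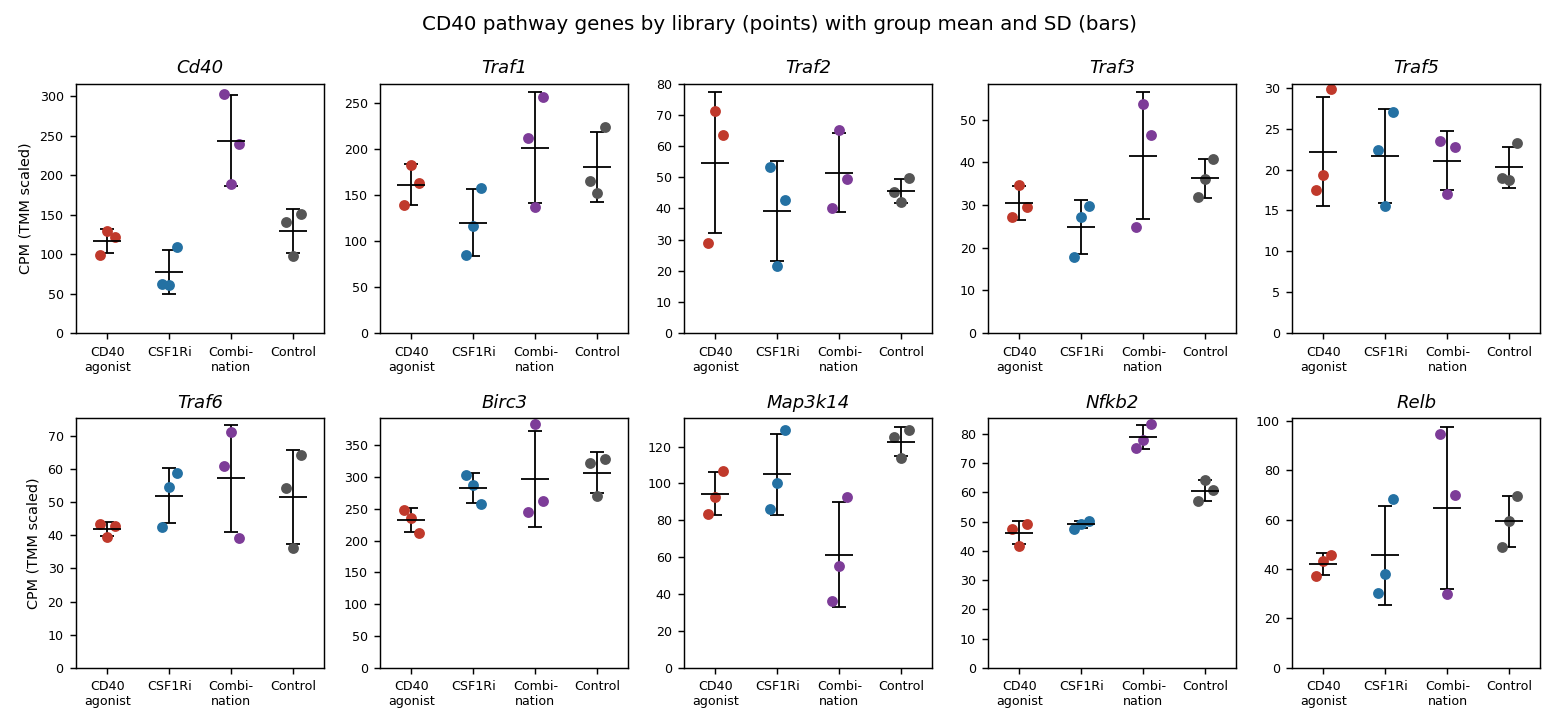
CPM of the 10 CD40 pathway genes in each library (points), with the mean and SD of each group of 3 (bars), for CD40 agonist, CSF1Ri, combination and Control. Cd40 and Nfkb2 lie higher in all 3 combination libraries than in any library of the other groups, and Map3k14 lies below Control in all 3.

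The level of Cd40 came from several transcripts. Averaged over the 12 libraries, Cd40-202 held 44.0% of the TPM of the gene, Cd40-207 20.6%, Cd40-203 14.1% and the full-length Cd40-201 11%. These shares rest on how the authors' software divided reads between overlapping transcripts. Cd40-202 lacks exon 7, and its annotated last exon is 933 bases long against 2227 bases in Cd40-201, so the share of the gene given to Cd40-202 could follow the missing exon or the shorter 3' end, and the 2 cannot be told apart in these files. Cd40-207 is annotated as a target of nonsense-mediated decay, and Cd40-203 as protein coding with 609 coding bases against 867 in Cd40-201. The annotated last exon of Cd40-203 is 24 bases long, and the same limit holds for its share.

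Among the 4 transcripts of Cd40 with a mean share of at least 5%, 3 differed in level between the groups by an exact permutation test over all 369600 arrangements of the 12 libraries, adjusted over the 8 tests of shares and levels. Cd40-203 had 16.1, 17.2 and 16.6 TPM with the CD40 agonist, 7.21, 6.45 and 12 TPM with CSF1Ri, 39.5, 22.6 and 39.2 TPM with the combination, and 20.7, 21.6 and 26.3 TPM in Control (exact permutation, adjusted p = 0.00571). CSF1Ri was lowest without overlap, and the combination and Control overlapped. Cd40-202 had 41.7, 54.7 and 60.0 TPM with the CD40 agonist, 24.7, 25.2 and 47.1 TPM with CSF1Ri, 141, 80.1 and 106 TPM with the combination, and 65.8, 45.4 and 75.5 TPM in Control (exact permutation, adjusted p = 0.0117). Its combination values lay above those of every other group, and the call was lost without combination replicate 1 (0.0644). Cd40-207 averaged 24.4 ± 0.712 TPM with the CD40 agonist, 18.1 ± 5.07 TPM with CSF1Ri, 48.6 ± 6.51 TPM with the combination and 25 ± 11.1 TPM in Control (exact permutation, adjusted p = 0.0377). That call was lost without any 1 of the CD40 agonist or combination libraries, CSF1Ri replicate 1 or 2, or Control replicate 1, at up to 0.108. The full-length Cd40-201 averaged 12.8 ± 2.10 TPM with the CD40 agonist, 10.6 ± 3.75 TPM with CSF1Ri, 21.3 ± 5.78 TPM with the combination and 14.7 ± 3.20 TPM in Control (exact permutation, adjusted p = 0.0863), and it was called without CSF1Ri replicate 3 (0.0287) or without combination replicate 2 (0.0494).

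The make-up of the Cd40 message was compared as shares of its TPM. The share of Cd40-203 was 15.2%, 14.5% and 13.4% in the CD40 agonist libraries, 11.3%, 10.4% and 9.92% in those of CSF1Ri, 14.8%, 13.4% and 16.2% in those of the combination, and 14.3%, 21.1% and 14.4% in Control. All 3 CSF1Ri libraries were lowest, and the exact permutation test over the 4 groups gave an adjusted p of 0.0377, which was lost without any 1 of the CD40 agonist or CSF1Ri libraries or without combination replicate 1, at up to 0.143. The share of Cd40-202 averaged 44.5% ± 4.71 with the CD40 agonist, 39.4% ± 1.17 with CSF1Ri, 48.3% ± 4.55 with the combination and 43.7% ± 2.07 in Control (SD, n = 3 each; exact permutation, adjusted p = 0.0928). Shares of Cd40-207 (adjusted p = 0.0928) and Cd40-201 (adjusted p = 0.155) were not called by the same exact permutation test, and both were called without Control replicate 3 (0.0485 and 0.0254). An exact permutation test of 2 groups of 3 cannot go below p = 0.1, so no pair of groups was tested for transcripts.

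**Figure D2:**
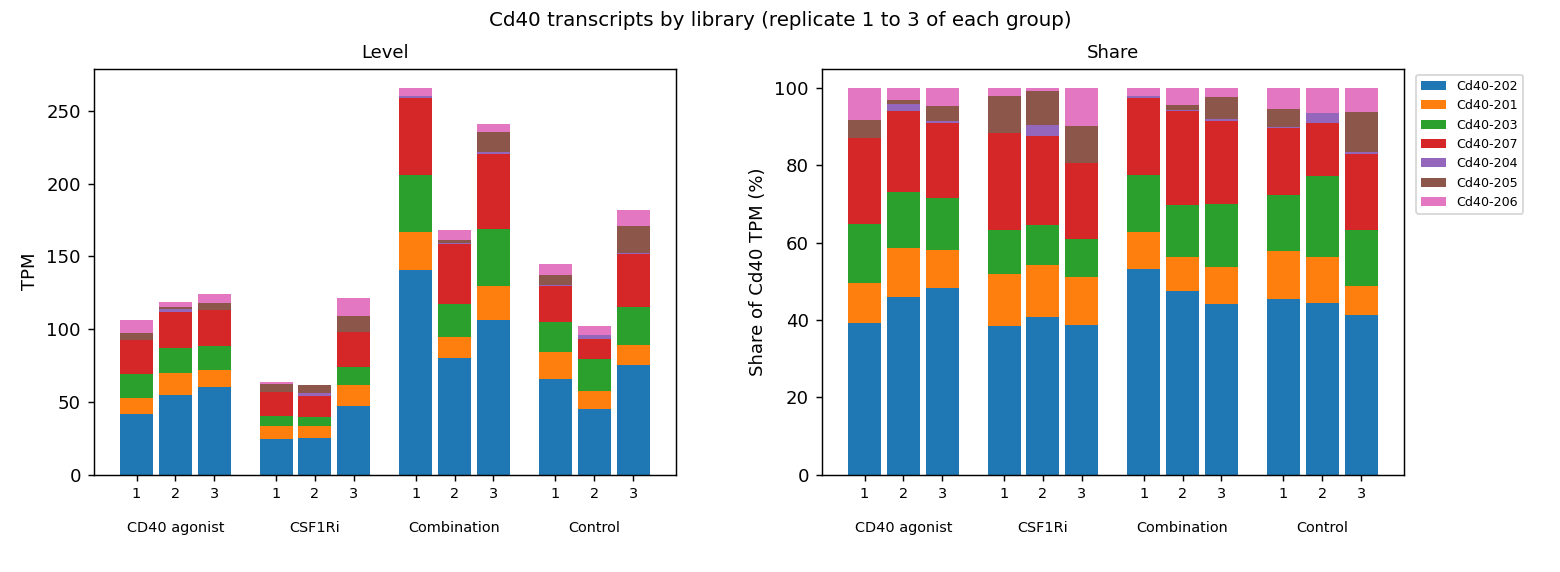
TPM of each Cd40 transcript (left) and its share of the TPM of the gene in percent (right), 1 stacked bar per library, for CD40 agonist, CSF1Ri, combination and Control. Cd40-202 is the largest part in all 12 libraries, from 38.6% to 53.1%, while the total height is greatest in the combination.

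The precursor of p52 followed Cd40 with a smaller spread. Nfkb2 stood at 47.5, 41.7 and 49.2 CPM with the CD40 agonist, at 47.6, 49.2 and 50.2 CPM with CSF1Ri, at 75.2, 78.0 and 83.2 CPM with the combination and at 57.0, 64.1 and 60.7 CPM in Control. The combination lay above Control and Control above both single agents, with no overlap, while the single agents overlapped each other. Against CSF1Ri the combination was 1.61-fold higher (log2 difference 0.69 ± 0.13, edgeR adjusted p = 0.027). That call was lost in the fit of the 6 libraries alone (0.155) and without the 3 libraries that stood apart (0.0555), combination replicate 1 (0.0557) or 3 (0.0682), or CSF1Ri replicate 1 (0.0904) or 2 (0.0952), at log2 differences of 0.65 to 0.72 in every setting.

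Nfkb2 was lower with each single agent than in Control by values that edgeR did not call. The log2 difference was -0.39 ± 0.13 for the CD40 agonist (adjusted p = 0.55) and -0.31 ± 0.13 for CSF1Ri (adjusted p = 0.48). The combination stood 0.77 ± 0.13 above the CD40 agonist (adjusted p = 0.173) and 0.38 ± 0.13 above Control (adjusted p = 0.199). Its interaction was 1.08 ± 0.18 (adjusted p = 0.174). DESeq2 called the difference of the CD40 agonist from Control (adjusted p = 0.0262), of the combination from Control (0.00457) and from the CD40 agonist (2.98e-10), and the interaction (4.43e-09). Psd and AC114539.1 overlap Nfkb2 on the opposite strand, and libraries without strand information cannot assign shared reads.

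RelB, the partner of p52, varied within groups. Relb stood at 37.1, 43.3 and 45.7 CPM with the CD40 agonist, at 30.4, 37.8 and 68.2 CPM with CSF1Ri, at 94.5, 29.8 and 69.8 CPM with the combination and at 48.7, 59.6 and 69.5 CPM in Control. The lowest and the highest of the 12 libraries were both combination libraries. The combination differed from CSF1Ri by 0.51 ± 0.39 (edgeR adjusted p = 0.527), from the CD40 agonist by 0.62 ± 0.39 (0.712) and from Control by 0.13 ± 0.39 (0.921). All 3 CD40 agonist libraries lay below Control, at a log2 difference of -0.49 ± 0.39 (adjusted p = 0.838).

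The kinase gene ran the other way. Map3k14, which encodes NIK, stood at 83.7, 92.9 and 107 CPM with the CD40 agonist, at 85.9, 100 and 129 CPM with CSF1Ri, at 36.3, 55.2 and 92.6 CPM with the combination and at 125, 114 and 129 CPM in Control. All combination and all CD40 agonist libraries lay below Control, and CSF1Ri overlapped Control. The combination was at 0.499 times the Control level, a log2 difference of -1.0 ± 0.29 that edgeR did not call (adjusted p = 0.144). DESeq2 called it (adjusted p = 0.0265), and so did edgeR without combination replicate 3. Against CSF1Ri the value was -0.78 ± 0.29 (adjusted p = 0.186) and against the CD40 agonist -0.62 ± 0.28 (adjusted p = 0.552). 1700028N14Rik overlaps Map3k14 on the same strand.

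Among the adaptors Traf1, an NF-kB target that pairs with TRAF2, had the highest length-corrected level. It stood at 139, 183 and 163 CPM with the CD40 agonist, at 85.5, 117 and 158 CPM with CSF1Ri, at 212, 137 and 257 CPM with the combination and at 166, 152 and 224 CPM in Control. All 4 groups overlapped, with the lowest value in a CSF1Ri library and the highest in a combination library. The combination differed from CSF1Ri by 0.75 ± 0.27 (edgeR adjusted p = 0.178).

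Traf3, the adaptor that brings NIK to its ubiquitin ligase, stood at 27.1, 34.8 and 29.6 CPM with the CD40 agonist, at 17.8, 27.1 and 29.8 CPM with CSF1Ri, at 24.9, 53.6 and 46.3 CPM with the combination and at 31.8, 36.1 and 40.8 CPM in Control. All CSF1Ri libraries lay below Control (log2 difference -0.54 ± 0.29, adjusted p = 0.595), and the combination overlapped every group. The combination differed from CSF1Ri by 0.74 ± 0.29 (edgeR adjusted p = 0.212).

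The remaining adaptors overlapped between all groups, and the ligase gene Birc3 in all but 2 pairs of groups. Traf2, the scaffold that carries cIAP1 and cIAP2, ran from 21.5 to 71.3 CPM over the 12 libraries, and single libraries of the CD40 agonist (28.9 CPM) and CSF1Ri (21.5 CPM) groups lay below the rest of their group. Traf5, a relative of TRAF2 in TNF receptor signalling, ran from 15.6 to 29.8 CPM, with group means between 20.3 ± 2.50 CPM in Control and 22.2 ± 6.61 CPM with the CD40 agonist. Traf6, which binds CD40 at a site of its own and feeds the canonical arm, ran from 36.3 to 71.2 CPM and both ends came from groups that overlapped, Control and the combination. Birc3 stood at 249, 236 and 212 CPM with the CD40 agonist, at 303, 288 and 258 CPM with CSF1Ri, at 245, 384 and 263 CPM with the combination and at 323, 270 and 329 CPM in Control. All CD40 agonist libraries of Birc3 lay below CSF1Ri and below Control (log2 difference -0.40 ± 0.17, edgeR adjusted p = 0.633). Gm13433 overlaps Traf2, 4930595D18Rik overlaps Traf3 and Gm26879 overlaps Traf5 on the opposite strand, and Mir3473c and Gstp-ps overlap Traf5 on its own strand.

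Counted over all 10 genes, calls were few in a fit that called few genes at all. None was called for the antibody alone against Control (0% of all 16027 genes called). There 2 of 10 had an unadjusted p below 0.05, against 7.68% of all genes. In limma voom none was called (0.0312% of genes) and in DESeq2 1, Nfkb2 (1.48% of genes called). For CSF1Ri alone against Control none was called (0.0125% of all genes), and 2 had an unadjusted p below 0.05, against 9.47%. None was called in limma voom (0% of genes) or in DESeq2 (2.76% of genes). For the combination against Control none was called (0.774% of all genes), and 3 had an unadjusted p below 0.05, against 14.8%. There limma voom called none (0.942% of genes) and DESeq2 3 (6.99% of genes). For the combination against the CD40 agonist none was called (0% of all genes), and 2 had an unadjusted p below 0.05, against 9.05%. Here limma voom called none (0.0437% of genes) and DESeq2 2 (2.25% of genes). Against CSF1Ri the combination raised 2, Cd40 and Nfkb2 (1.94% of all genes called, 1.24% as higher), and both were also called in limma voom (1.83% of genes) and DESeq2 (10.7% of genes). In the test of any difference among the 4 groups the same 2 were called (1.2% of all genes), Cd40 with an adjusted p of 0.0399 and Nfkb2 with 0.0337, and likewise in DESeq2 (12.6% of genes). That test called none of the 10 genes when any Control or CD40 agonist library, combination replicate 1 or 3, or CSF1Ri replicate 1 or 2 was left out, when 0.0771% to 0.638% of all genes were called. Without combination replicate 2 it called 1 of the 10 and 1.73% of all genes.

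The directions were uneven. With the CD40 agonist 8 of the 10 genes were below Control in the fit (50.9% of all genes were above it) and 4 had all libraries below it (Nfkb2, Relb, Map3k14 and Birc3; 8.74% of all genes), with none above (8.34% of all genes). With CSF1Ri 8 were below Control (48.3% of all genes were above it), 2 with all libraries below (Traf3 and Nfkb2; 8.55% of all genes) and none with all above (7.23%). With the combination 8 were above Control (50.2% of all genes), 2 with all libraries above (Cd40 and Nfkb2; 10.8% of all genes) and 1 with all below (Map3k14; 11.5% of all genes). The median log2 difference over the 10 genes was -0.28 for the CD40 agonist, -0.27 for CSF1Ri and 0.16 for the combination, all against the same Control libraries, and the medians over all genes were 0.011, -0.015 and 0.002. Against CSF1Ri the median for the combination was 0.45, beside 0.02 over all genes. No interaction was called in edgeR (0% of all genes) or limma voom (0% of all genes). DESeq2 called those of Cd40 (adjusted p = 0.00151) and Nfkb2 among 1.49% of genes. In edgeR 4 of 10 interactions, those of Cd40, Nfkb2, Traf1 and Traf3, had an unadjusted p below 0.05, against 8.14% of all genes.

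**Figure D3:**
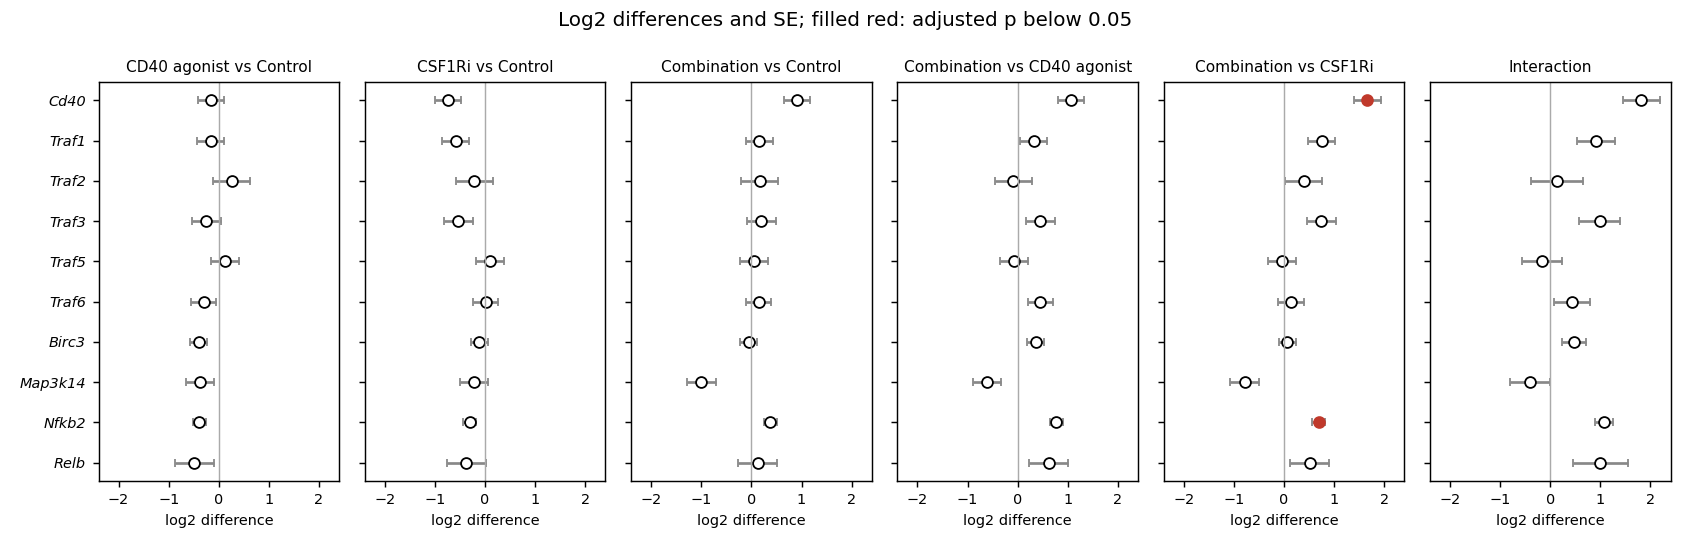
Log2 difference and SE of the 10 genes in each comparison and for the interaction of both agents (edgeR, 12 libraries in 1 fit). Filled red points mark an adjusted p below 0.05, reached by Cd40 (1.66) and Nfkb2 (0.69) for the combination against CSF1Ri.

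Because CD40 and RelB are abundant in dendritic cells and B cells, markers of those cells were set beside the pathway genes. All 12 dendritic cell markers were detected in every group. Their summed level was 1400, 1620 and 1640 TPM with the CD40 agonist, 754, 849 and 2070 TPM with CSF1Ri, 2240, 245 and 2370 TPM with the combination and 1510, 1430 and 2680 TPM in Control. CSF1Ri replicate 3 was the highest and combination replicate 2 the lowest of their groups. Ccl22, Ccr7 and Fscn1, genes of migrating mature dendritic cells, made up most of the sum. Ccl22 was its largest part in every library, at 136 to 1600 TPM. Xcr1, Clec9a, Siglech, Zbtb46 and Itgae were each at 9.3 TPM or less in all 12 libraries, so the sum says little about them. The same combination replicate 2 had 47.7 TPM of Ccr7, against 556 and 582 TPM in the other combination libraries, and 0.0583 TPM of Cd209a, against 86.4 and 141 TPM.

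Relb and Traf1 moved with this marker level from library to library. Over the 12 libraries, which share 4 groups and their treatments, the Pearson correlation of log2 values with the marker sum was 0.80 for Relb and 0.66 for Traf1, 0.26 for Cd40, -0.06 for Nfkb2 and -0.58 for Birc3. Other marker sums came as close, with -0.75 for Traf1 and -0.71 for Relb against macrophage markers and 0.67 for Traf1 and 0.74 for Relb against keratinocyte markers. Most of the macrophage sum was the single marker Lyz2. Combination replicate 2 held the lowest Relb value of all libraries and the lowest Traf1 value of its group, yet its Nfkb2 value of 78.0 CPM lay inside the combination range and its Cd40 value of 189 CPM above every library of the other groups. When combination replicate 2, CSF1Ri replicate 3 and CD40 agonist replicate 1 were left out together, 3 of the 10 genes were called for the combination against CSF1Ri (4% of all genes called), Cd40 (log2 difference 2.15), Relb (1.27 ± 0.24, edgeR adjusted p = 0.0274) and Traf1 (1.21 ± 0.23, adjusted p = 0.0276). In those remaining libraries the dendritic cell marker sum was 2240 and 2370 TPM with the combination, against 754 and 849 TPM with CSF1Ri. Not every marker followed the sum, and Cd209a stood at 86.4 and 141 TPM with the combination against 164 and 234 TPM with CSF1Ri. In the fit of all 12 libraries 8 dendritic cell markers were higher and 4 lower with the combination than with CSF1Ri. The part of dendritic cells in these differences was not tested.

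**Figure D4:**
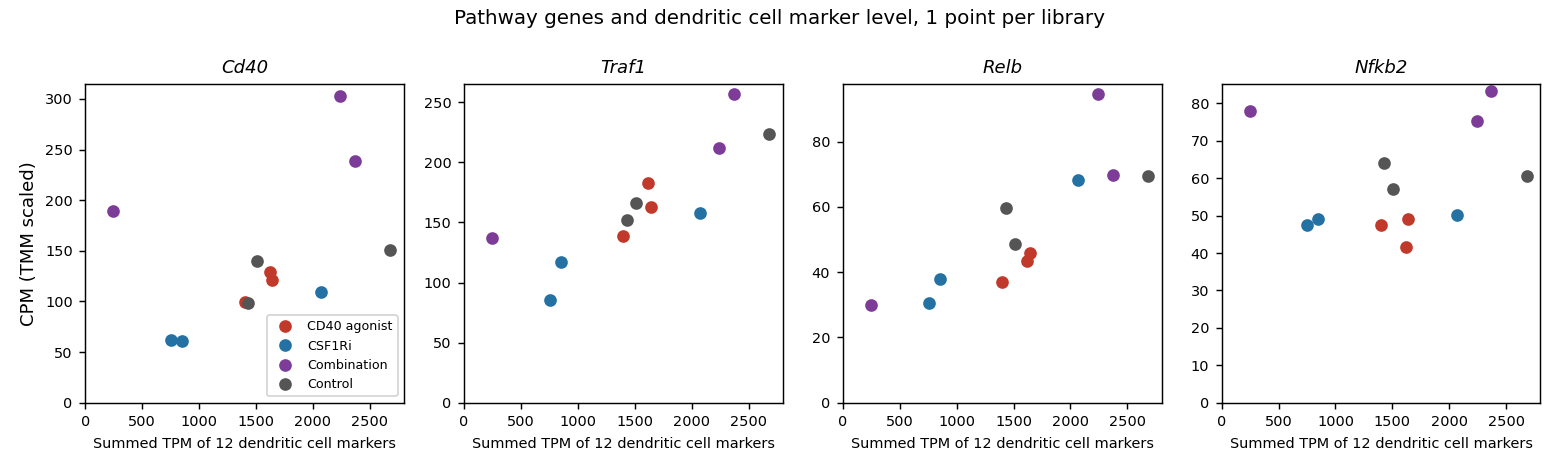
CPM of Cd40, Traf1, Relb and Nfkb2 (vertical axes) against the summed TPM of 12 dendritic cell markers (horizontal axes), 1 point per library, coloured by group. Relb and Traf1 climb with the marker sum (r of 0.80 and 0.66), while Nfkb2 stays near 75 to 83 CPM in the combination at marker sums from 245 to 2370 TPM.

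Markers of other cells did not all stay level. B cell markers summed to 266 to 321 TPM with the CD40 agonist, 142 to 181 TPM with CSF1Ri, 87.4 to 170 TPM with the combination and 249 to 283 TPM in Control. Of the 10 markers Pax5 and Blk were at 0 with the combination, and all were detected with the CD40 agonist and in Control. The combination, highest in Cd40, overlapped CSF1Ri in its summed B cell marker level and lay below the other groups. Ighm made up most of that sum, with means of 229, 133, 106 and 227 TPM in the same order of groups. Of the 8 B cell markers tested, 6 were higher and 2 lower with the combination than with CSF1Ri (median log2 difference 0.86). Against Control 2 were higher and 6 lower (median -1.08). The part of B cells in the Cd40 values was not tested. Macrophage markers summed to 16900 to 20300 TPM with the CD40 agonist, 25300 to 29900 TPM with CSF1Ri, 14100 to 32500 TPM with the combination and 19100 to 22100 TPM in Control. Lyz2 made up most of that sum, with means of 15600, 24200, 18600 and 17500 TPM in the same order of groups. Of the 14 macrophage markers 6 were higher and 8 lower with CSF1Ri than in Control (median log2 difference -0.24). NK cell markers summed to 903 to 1650 TPM with the CD40 agonist, 462 to 701 TPM with CSF1Ri, 903 to 1410 TPM with the combination and 684 to 1010 TPM in Control, all 8 detected throughout. Markers of melanocytes and melanoma summed to 28.0 to 29.4 TPM with the CD40 agonist, 5.73 to 9.34 TPM with CSF1Ri, 19.3 to 103 TPM with the combination and 17.3 to 21.8 TPM in Control. Of these 9 markers 8 were detected with the CD40 agonist, 5 with CSF1Ri, 9 with the combination and 7 in Control. Slc45a2 was at 0 with the CD40 agonist, Tyrp1, Mlana, Sox10 and Slc45a2 with CSF1Ri, and Sox10 and Slc45a2 in Control. Over the 12 libraries the log2 sum of these markers had a correlation of 0.76 with Cd40, 0.49 with Nfkb2 and -0.63 with Map3k14. Genes induced by stress and tissue digestion, such as Fos and Atf3, summed to 2980 to 3410 TPM with the CD40 agonist, 2240 to 3480 TPM with CSF1Ri, 3400 to 4080 TPM with the combination and 2080 to 2400 TPM in Control, all 14 detected throughout. Their log2 sum had a correlation of -0.85 with Map3k14 over the 12 libraries, the strongest of any marker list with any of the 10 genes. The part of these shifts in the Cd40, Nfkb2 and Map3k14 values was not tested.

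Granulocyte and erythroid markers differed between groups as well. Neutrophil markers summed to 630 to 931 TPM with the CD40 agonist, 1540 to 7730 TPM with CSF1Ri, 1490 to 4360 TPM with the combination and 1220 to 3200 TPM in Control, and of the 9 markers Ly6g was at 0 with the CD40 agonist. Retnlg, a neutrophil gene, was called lower with the combination than in Control (log2 difference -2.87 ± 0.46, edgeR adjusted p = 0.0228) and than with CSF1Ri (-4.0 ± 0.48, adjusted p = 0.00837). Most neutrophil markers went the other way against Control, with 7 higher and 2 lower (median log2 difference 1.11). Against CSF1Ri 3 were higher and 6 lower (median -0.31). Mast cell, basophil and eosinophil markers summed to 126 to 270 TPM with the CD40 agonist, 322 to 590 TPM with CSF1Ri, 301 to 492 TPM with the combination and 97.7 to 145 TPM in Control. Epx and Prg2 were at 0 in the CD40 agonist and combination groups, and Mcpt4 and Epx in Control. Cpa3, Fcer1a and Mcpt8 of these 11 were called higher with the combination than in Control (log2 differences of 1.86 to 2.58), and Ccr3 (-2.66) and Il5ra (-5.05) lower than with CSF1Ri. Erythroid markers summed to 364 to 534 TPM with the CD40 agonist, 635 to 1600 TPM with CSF1Ri, 34.9 to 786 TPM with the combination and 1280 to 1880 TPM in Control, with Slc4a1 detected in Control alone. Called against CSF1Ri were also the macrophage marker Aif1 and the NK cell markers Gzma and Klrk1, all higher with the combination. Of the stress genes Atf3, Fos, Fosb, Jun and Junb were called higher with the combination than in Control, and Atf3 and Jun than with CSF1Ri. With any 1 Control library left out, at most 1 gene in all was called for the combination against Control. The part of these cells in the values of the 10 genes was not tested.

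The genes around the pathway were read from 6 further lists, against 0.774% of all genes called for the combination against Control and 1.94% against CSF1Ri. Without Control replicate 1, 2 or 3 the first comparison called 0, 1 and 0 genes in all, and the fits of 6 libraries alone called 5 genes against Control and 0 against CSF1Ri. All calls of listed genes against Control were lost in those 4 settings, and all calls against CSF1Ri in the fit of 6 libraries. Of the ligands of receptors that use NIK, 6 of 8 passed the filter, and none was called in any comparison. Cd40lg, the CD40 ligand, was too low to test, with 115 counts in 1 CD40 agonist library and 0 in the other two, 0 with CSF1Ri, 0 with the combination and 23 in Control. Tnfsf13, the cytokine APRIL, stood at 26.9 ± 8.74 CPM with the combination and 51.9 ± 6.82 CPM in Control (log2 difference -0.95 ± 0.23, edgeR adjusted p = 0.0833). Lta, encoding lymphotoxin alpha, had the largest positive value of the list at 0.87 ± 1.61 (adjusted p = 0.857). Of 10 other receptors that use this arm none was called. Their extremes for the combination against Control were Tnfrsf13c, the B cell receptor for BAFF, at -2.2 ± 1.36 (adjusted p = 0.489) and Tnfrsf12a, the receptor for TWEAK, at 1.12 ± 0.51 (adjusted p = 0.334).

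Among 16 genes that restrain or modify NIK and the TRAF proteins, 1 rose with the combination. Tnfaip3, encoding the ubiquitin editor A20, averaged 244 ± 14.5 CPM with the CD40 agonist and 581 ± 148 CPM with the combination, against 174 ± 71.0 CPM with CSF1Ri and 92.6 ± 26.6 CPM in Control. Its log2 difference was 2.65 ± 0.34 from Control (edgeR adjusted p = 0.0145) and 1.74 ± 0.32 from CSF1Ri (adjusted p = 0.0278). The call against CSF1Ri was lost without combination replicate 1 or CSF1Ri replicate 1 or 2, at up to 0.09. All CD40 agonist libraries also lay above Control (1.40 ± 0.32, adjusted p = 0.351), and the combination stood 1.25 ± 0.32 above the CD40 agonist (adjusted p = 0.285). The other 15 were not called, including Birc2, the gene of cIAP1, at 240 ± 64.6 CPM with the combination and 195 ± 42.9 CPM in Control (0.30 ± 0.28, adjusted p = 0.684). Chuk, the kinase IKK alpha that NIK activates, averaged 42.3 ± 2.50 CPM with the combination and 54.4 ± 2.80 CPM in Control (-0.36 ± 0.16, adjusted p = 0.328). Nlrp12, described as a brake on NIK, had the lowest value of the list at -1.31 ± 1.03 (adjusted p = 0.609).

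The canonical arm, which works through p50 and RelA, showed calls in both directions among 13 genes. Nfkb1, which encodes p105 and p50, fell with the combination to 203 ± 23.1 CPM, against 320 ± 32.4 CPM with CSF1Ri and 318 ± 1.84 CPM in Control. The log2 difference was -0.65 ± 0.12 from CSF1Ri (edgeR adjusted p = 0.023) and from Control (adjusted p = 0.0362). With the CD40 agonist alone Nfkb1 averaged 242 ± 9.77 CPM, with all libraries below Control (-0.39 ± 0.12, adjusted p = 0.463). Nfkb1 and Nfkb2, the 2 precursor genes, were thus called in opposite directions for the combination against CSF1Ri, and their ratio was not tested. Nfkbia, the inhibitor IkB alpha and an NF-kB target, rose against Control by 1.91 ± 0.29 (adjusted p = 0.0196) and against CSF1Ri by 1.34 ± 0.28 (adjusted p = 0.0393). Nfkbiz, a nuclear IkB protein, rose against Control by 1.41 ± 0.26 (adjusted p = 0.039) and against CSF1Ri by 1.51 ± 0.27 (adjusted p = 0.0232). With the CD40 agonist alone all libraries of both inhibitor genes lay above Control, Nfkbia at 942 ± 214 CPM against 437 ± 21 CPM (1.11 ± 0.28, adjusted p = 0.379) and Nfkbiz at 342 ± 52 CPM against 166 ± 17.8 CPM (1.04 ± 0.26, adjusted p = 0.379). Among the 12 settings that leave out 1 library, the call of Nfkb1 against Control held only without combination replicate 3 or CSF1Ri replicate 3, that of Nfkbiz also without CSF1Ri replicate 1, and that of Nfkbia in all but those without a Control library. Against CSF1Ri Nfkb1 and Nfkbiz lost theirs without combination replicate 1 or CSF1Ri replicate 1 or 2 (up to 0.0997 and 0.0841), and Nfkbia kept its own only without CD40 agonist replicate 1 or combination replicate 3. The median of the list was 0.08 against Control and 0.47 against CSF1Ri, beside 0.002 and 0.02 over all genes.

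Of 18 genes known to respond to CD40 in myeloid or B cells, 2 rose in the combination against Control. Tnf averaged 83.5 ± 28.9 CPM with the CD40 agonist, 10.2 ± 2.86 CPM with CSF1Ri, 168 ± 87.6 CPM with the combination and 22.3 ± 2.15 CPM in Control (combination minus Control 2.91 ± 0.39, edgeR adjusted p = 0.0156). The antibody alone differed from Control in Tnf by 1.91 ± 0.38 with all libraries above (adjusted p = 0.236). Il6 averaged 21.5 ± 7.08 CPM with the CD40 agonist, 47.5 ± 7.63 CPM with CSF1Ri, 51.9 ± 8.16 CPM with the combination and 13.4 ± 5.12 CPM in Control (combination minus Control 1.95 ± 0.32, adjusted p = 0.0244). Il6 with CSF1Ri alone overlapped the combination and lay above Control in all libraries (1.82 ± 0.31, adjusted p = 0.0813). The Il6 call was also lost without combination replicate 1 and without the 3 libraries that stood apart. Against CSF1Ri 4 rose, Tnf (4.04 ± 0.41, adjusted p = 0.0066), Il12b of IL-12 and IL-23 (4.45 ± 0.88, adjusted p = 0.0337) and the chemokines Cxcl10 (3.07 ± 0.60, adjusted p = 0.0334) and Ccl5 (1.47 ± 0.31, adjusted p = 0.0425). Leaving out any 1 library kept Tnf called against CSF1Ri (adjusted p up to 0.0281). In those 12 settings Ccl5 kept its call only without combination replicate 2 or CSF1Ri replicate 3, and Il12b only without CD40 agonist replicate 1 or combination replicate 2. Cxcl10 lost its call without any 1 Control or CSF1Ri library or CD40 agonist replicate 3, at up to 0.102. Il12b is also among the dendritic cell markers, and it stood at 146, 12.9 and 126 TPM in the combination libraries, low in the replicate with the low marker sum. The extremes that were not called against Control were Il12a at 3.87 ± 1.91 (adjusted p = 0.377), with 16 counts in all of Control, and the transcription factor Irf4 at -1.41 ± 0.98 (adjusted p = 0.546). The list median was 0.44 against Control and 0.40 against CSF1Ri.

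Genes listed as targets of RelB and p52, mainly chemokines and B cell genes of lymphoid tissue, held no call among the 9 of 10 that were tested. Cr2, a complement receptor of B cells, had 3 counts summed over the combination libraries and 141 over Control, and was not called (edgeR adjusted p = 0.165). Enpp2, the enzyme autotaxin, averaged 22.3 ± 26.1 CPM with the combination and 1.52 ± 2.20 CPM in Control (3.87 ± 2.01, adjusted p = 0.413). With either agent alone no gene of the 6 lists was called against Control in edgeR, nor for the combination against the CD40 agonist.

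**Figure D5:**
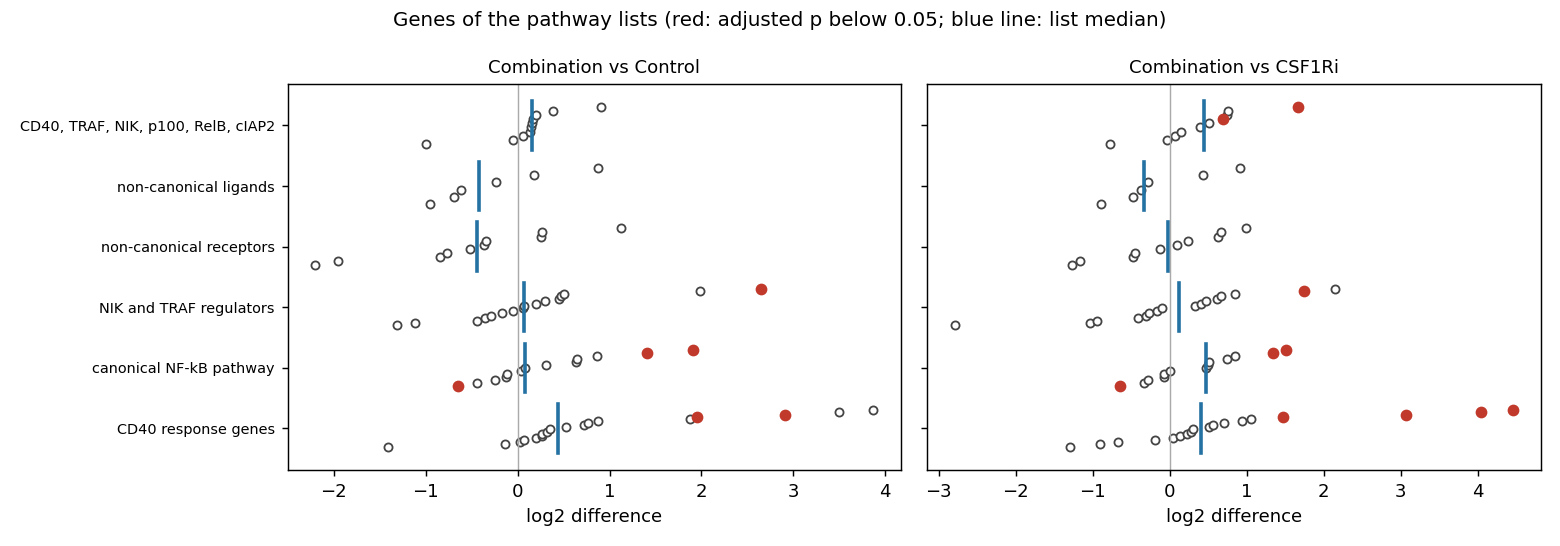
Log2 differences of the 10 CD40 pathway genes and of 5 further lists, 1 point per gene, for the combination against Control (left) and against CSF1Ri (right), with list medians as blue lines. Red points passed an adjusted p of 0.05, and Nfkb1 at -0.65 is the red point below 0 in both panels.

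Within the pathway the members did not form 1 block. Over the 12 libraries the correlation of log2 CPM was highest between Cd40 and Traf1 (r = 0.81), Traf1 and Relb (0.78) and Cd40 and Nfkb2 (0.74), and lowest between Cd40 and Map3k14 (-0.52). All of these values share the same libraries and treatments. Over all genes kept, the patterns most like that of Cd40 included those of H2-Q6, an MHC class I gene whose reads its near-identical neighbours can share (r = 0.968), Ran, a nuclear transport GTPase (0.958), Pmvk, of the mevalonate pathway (0.939), and Psme2, a proteasome activator subunit (0.928). Psme2 averaged 517 CPM with the CD40 agonist, 384 CPM with CSF1Ri, 952 CPM with the combination and 596 CPM in Control. The genes nearest to Nfkb2 included Gm44954, Gm14322, Lig4 and Mpp4 (r from 0.86 to 0.929), all 4 at a mean of at most 5.44 CPM in every group, where single counts weigh heavily.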

How the data were processed

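RNA from 12 samples in 4 groups of 3 was analysed. Libraries came from 50 ng of RNA with an ultra-low-input kit that keeps no strand, were run 6 to a lane as 75-bp pairs and were aligned with STAR to GRCm38 (mm10), counted with HTSeq and tested in DESeq2, per the labels' protocols. The lane of each library is not given. Per the file headers, the deposited files instead list estimated counts, TPM, length and effective length by transcript, the layout of a transcript quantifier. Which one, with which annotation, is not given. Deposited estimated counts carry no scaling, and the TPM deposited by the authors adds up to 1000000 in a library.

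Of 111462 transcripts, 110203 (98.87%) matched GENCODE M21, and counts were summed per gene and rounded. All 12 libraries entered 1 edgeR 4.0.16 fit (R 4.3.3; TMM, filterByExpr, robust quasi-likelihood, 8 residual degrees of freedom), with Benjamini-Hochberg adjustment over 16027 genes and calls at an adjusted p below 0.05. The procedure was tested on simulated data. Cd40 transcripts were compared on log2(TPM + 0.1) and as shares of TPM. Correlations used log2 CPM with a prior count of 2, or log2 values plus 1 for marker sums. DESeq2 1.42.0, limma 3.58.1 voom, other scalings, filters and library sets were alternatives.

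The 10 genes and all lists were chosen with earlier results of these data known. Named beyond the 10 were every listed gene called, each list's extremes for the combination against Control, Birc2, Chuk and Cd40lg. Also named were the markers that led the dendritic cell and macrophage sums, and the 5 genes nearest to Cd40 and to Nfkb2. The correlations with marker sums were added after the data were seen. Replicate numbers did not pair samples: same-numbered libraries correlated at -0.061 to 0.06 (18 pairs, deviations from group means). Alleles of the mice other than Tyr::CreER, and some genes that this rule would name, are not reported here.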

Additional observations from a re-analysis of the deposited data

How the results depend on the processing

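Standard errors of the 10 genes ran from 0.13 to 0.39 on the log2 scale in the pairwise comparisons, with 3 libraries a group and at least 26316328 counts a library. The direction of Cd40, Nfkb2 and Map3k14 held in every setting. DESeq2 called 1 of the 10 genes for the CD40 agonist against Control (1.48% of all genes) and 3 for the combination against Control (6.99%). It called 2 for the combination against the CD40 agonist (2.25%) and 2 in the interaction (1.49%). For the combination against CSF1Ri the fit of the 6 libraries alone called 0 (0% of all genes), and the fit with the replicate number as a block called 1 (Cd40; 0.755% of all genes). The test of any difference called 1 without a filter on low counts (0.754% of all genes), 1 with length-scaled counts (1.08%), 0 with the replicate block (0.306%) and 1 without the 3 libraries that stood apart (3.55%). Without those libraries 1 gene was called for CSF1Ri (2.12% of all genes) and 1 for the combination (1.44%), each against Control and each Cd40. The block changed no other call among the 10 genes. Among listed genes, for which these settings were chosen after seeing the data, it ended the calls of Nfkb1 against Control and of Ccl5, Cxcl10, Il12b, Nfkb1 and Tnfaip3 against CSF1Ri, and limma voom those of Cxcl10 and Il12b against CSF1Ri. The causes were not tested. Leaving out 1 library at a time, calls ran from 0 to 2 for the combination against CSF1Ri (0.13% to 2.55% of all genes). They ran from 0 to 2 for any difference (0.0771% to 1.73%) and from 0 to 1 for the combination against Control (0% to 0.918%).

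For Cd40 transcripts (exact permutation tests), the share of Cd40-202 was called when shares were taken of estimated counts (adjusted p = 0.0339). The share of Cd40-203 and the level of Cd40-207 were not called with transcripts of at least 1% included (0.0565 for both), with all transcripts (0.0659 for both) or within replicate blocks (0.108 and 0.0648). Leaving out 1 library, adjusted p ran from 0.0287 to 0.2 for the level of Cd40-201, 0.00286 to 0.0644 for Cd40-202 and 0.00727 to 0.108 for Cd40-207, and for shares from 0.0254 to 0.305 for Cd40-201, 0.0203 to 0.143 for Cd40-203 and 0.0485 to 0.297 for Cd40-207.

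Signs changed only for uncalled values. The difference of the combination from the CD40 agonist in Traf2 was 0.00 in voom. For CSF1Ri against Control, Traf6 was -0.02 with upper quartile scaling, -0.01 without a filter and -0.09 with length-scaled counts, and Birc3 0.00 there. Length-scaled counts also gave 0.11 for Traf3 with the CD40 agonist against Control, and 0.09 for Traf5 and -0.02 for Birc3 with the combination against CSF1Ri. Without the 3 libraries, CSF1Ri against Control gave -0.10 for Traf5 and -0.09 for Traf6, the combination against Control -0.03 for Traf2, -0.03 for Traf3 and -0.04 for Traf6, the combination against CSF1Ri 0.29 for Traf5 and -0.22 for Birc3, and the interaction -0.31 for Traf2 and 0.02 for Traf5. Leaving out 1 library, log2 values spanned 0 as follows. The CD40 agonist against Control ran from -0.27 to 0.03 for Traf1 and -0.14 to 0.28 for Traf5. CSF1Ri against Control ran from -0.51 to 0.06 for Traf2, -0.12 to 0.27 for Traf5 and -0.20 to 0.18 for Traf6. The combination against the CD40 agonist ran from -0.41 to 0.15 for Traf2 and -0.23 to 0.19 for Traf5. The combination against CSF1Ri ran from -0.15 to 0.20 for Birc3, -0.22 to 0.17 for Traf5 and -0.05 to 0.35 for Traf6. The combination against Control ran from -0.27 to 0.08 for Birc3, -0.25 to 0.47 for Relb, -0.05 to 0.38 for Traf1, -0.03 to 0.33 for Traf2, -0.02 to 0.47 for Traf3, -0.03 to 0.19 for Traf5 and -0.06 to 0.36 for Traf6. The interaction ran from -0.18 to 0.41 for Traf2 and -0.35 to 0.11 for Traf5.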

Other observations

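The other pathway genes also differed in how many transcripts carried them. Nfkb2-201 held 92.6% of the TPM of Nfkb2 on average over the 12 libraries, and Traf6-201 held 92.5% of Traf6. Map3k14-201 held 76.5%, Traf2-202 68.6%, Birc3-201 58.6% and Traf1-201 50.9% of their genes. Relb-201 averaged 48.3% but ran from 8.05% to 77.0% between libraries, the widest range among these leading transcripts. For Traf5 the leading entry, Traf5-203 at 36.9%, is annotated as a retained intron and not as a coding transcript. Of Cd40, the entry Cd40-205, also annotated as a retained intron, held 9.29% ± 0.339 of the TPM with CSF1Ri and 4.91% ± 5.09 in Control (SD, n = 3). Its mean share was under 5%, and in the exact permutation tests with transcripts of at least 1% included its share had an adjusted p of 0.174 and its level one of 0.797.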
